A study of Mus musculus with 12 samples.

Results

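The miR-200 family and the miR-183 cluster were measured in mHypoE-46, an immortalised hypothalamic neuronal line from a male mouse embryo expressing the appetite peptides neuropeptide Y and agouti-related peptide. Both groups of miRNAs are best known from epithelia and sense organs. All 8 of their probes on a NanoString nCounter mouse miRNA panel were taken by name, out of 566 mouse miRNA probes: mmu-miR-200a, mmu-miR-200b, mmu-miR-200c, mmu-miR-141, mmu-miR-429, mmu-miR-183, mmu-miR-96 and mmu-miR-182. On this panel, targets are hybridised to coloured barcodes that are counted one by one, without amplification. Cells grown in DMEM with glucose, foetal bovine serum and penicillin-streptomycin received phosphate buffered saline as vehicle or 100 nM insulin, and were harvested 4 h or 24 h later. The 4 groups held 3 libraries each from independent repeats of the experiment, 12 in all, and the labels place the onset of insulin resistance between the harvest times. The model is 1 clonal line in culture, so the values describe that line and not the hypothalamus.

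The miR-200 family is a textbook guard of the epithelial state: its members repress the transcription factors Zeb1 and Zeb2, which in turn silence the family's genes. In the hypothalamus of leptin-deficient mice, miR-200a and its relatives have been linked to repression of the leptin receptor and of Irs2, an adaptor of the insulin receptor. The miR-183 cluster is abundant in photoreceptors, hair cells and sensory ganglia, and mutations in the seed of miR-96 cause progressive hearing loss in mice and humans. In human cells miR-96 and miR-182 repress FOXO1, a transcription factor that insulin signalling shuts out of the nucleus.

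The mature sequences show which members can share targets and which probes have near-identical neighbours. They are given 5′ to 3′ from RefSeq on GRCm38.p6, where all 8 matched, with the seed (bases 2 to 8) in capitals. The panel's names give no arm. The arm shown is the 3p arm for the miR-200 family and the 5p arm for the miR-183 cluster, to which the older unsuffixed names refer.
mmu-miR-200b: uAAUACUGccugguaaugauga
mmu-miR-200c: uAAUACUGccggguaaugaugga
mmu-miR-429: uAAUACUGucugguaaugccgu
mmu-miR-200a: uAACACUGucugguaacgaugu
mmu-miR-141: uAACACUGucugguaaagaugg
mmu-miR-96: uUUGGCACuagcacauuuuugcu
mmu-miR-182: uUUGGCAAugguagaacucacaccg
mmu-miR-183: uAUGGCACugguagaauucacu

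The miR-200 family thus falls into 2 seed groups, mmu-miR-200b, mmu-miR-200c and mmu-miR-429 in one and mmu-miR-200a and mmu-miR-141 in the other. Aligned from the 5′ end, mmu-miR-200b and mmu-miR-200c differ at 2 of 22 bases, and mmu-miR-200a and mmu-miR-141 also at 2 of 22. A probe may therefore take up some of its neighbour's molecules, and values of single members of such a pair are uncertain. In the miR-183 cluster, mmu-miR-96 and mmu-miR-182 share bases 2 to 7 but not base 8, and mmu-miR-183 has a seed of its own. The closest pair there is mmu-miR-183 and mmu-miR-182, which differ at 4 of 22 bases.

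The 8 mature sequences lie in 3 clusters, all on the minus strand. The first, at chr4:156053916-156055706, holds Mir200b, Mir200a and Mir429 within 1791 bases and lies inside the annotated span of the long non-coding RNA gene Gm13648. The second, at chr6:124717917-124718346, holds Mir200c and Mir141 within 430 bases. No other annotated gene overlaps either hairpin there, and the nearest is Phb2, 972 bases from Mir141. The third, at chr6:30165962-30169732, holds Mir183, Mir96 and Mir182 within 3771 bases and lies inside the annotated span of the non-coding host gene Mirc35hg. Whether the miRNAs sit in exons or introns of these host genes was not examined.

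Counts of all mouse miRNAs per library totalled between 142158 and 379809. A library's detection threshold, the mean plus 2 SD of its 8 negative controls, lay at 38.9 to 124 counts. Lanes 1 to 6 carried the 4 h libraries and lanes 7 to 12 the 24 h libraries, so a difference between times cannot be told apart from one between lanes. Of the 15 neuronal miRNAs listed as markers, 8 were tested, led by miR-125b-5p, miR-9 and miR-218, while miR-124, the defining neuronal miRNA, lay above the threshold in 0 of 12 libraries.

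Of the 8 cluster miRNAs, mmu-miR-96 and mmu-miR-200b lay above the threshold in 12 of 12 libraries, mmu-miR-183 in 11 and mmu-miR-200c in 5. The remaining 4 were at or near background: mmu-miR-182 exceeded it in 1 library, and mmu-miR-200a, mmu-miR-141 and mmu-miR-429 in 0. At least 1 miRNA of every cluster thus passed the filter for testing, a count above the threshold in at least 3 of 12 libraries, while at least 1 of its cluster mates did not. For the cluster of Mir200c and Mir141 this rests on mmu-miR-200c, which exceeded the negative control mean plus 3 SD in 1 library and the highest viral probe in 0. The filter passed 4 of the 8, against 34.5% of all mouse miRNA probes. It also passed 5 of 33 probes for viral miRNAs, 15.2%, so passing it does not show by itself that a miRNA was present.

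**Figure D1:**
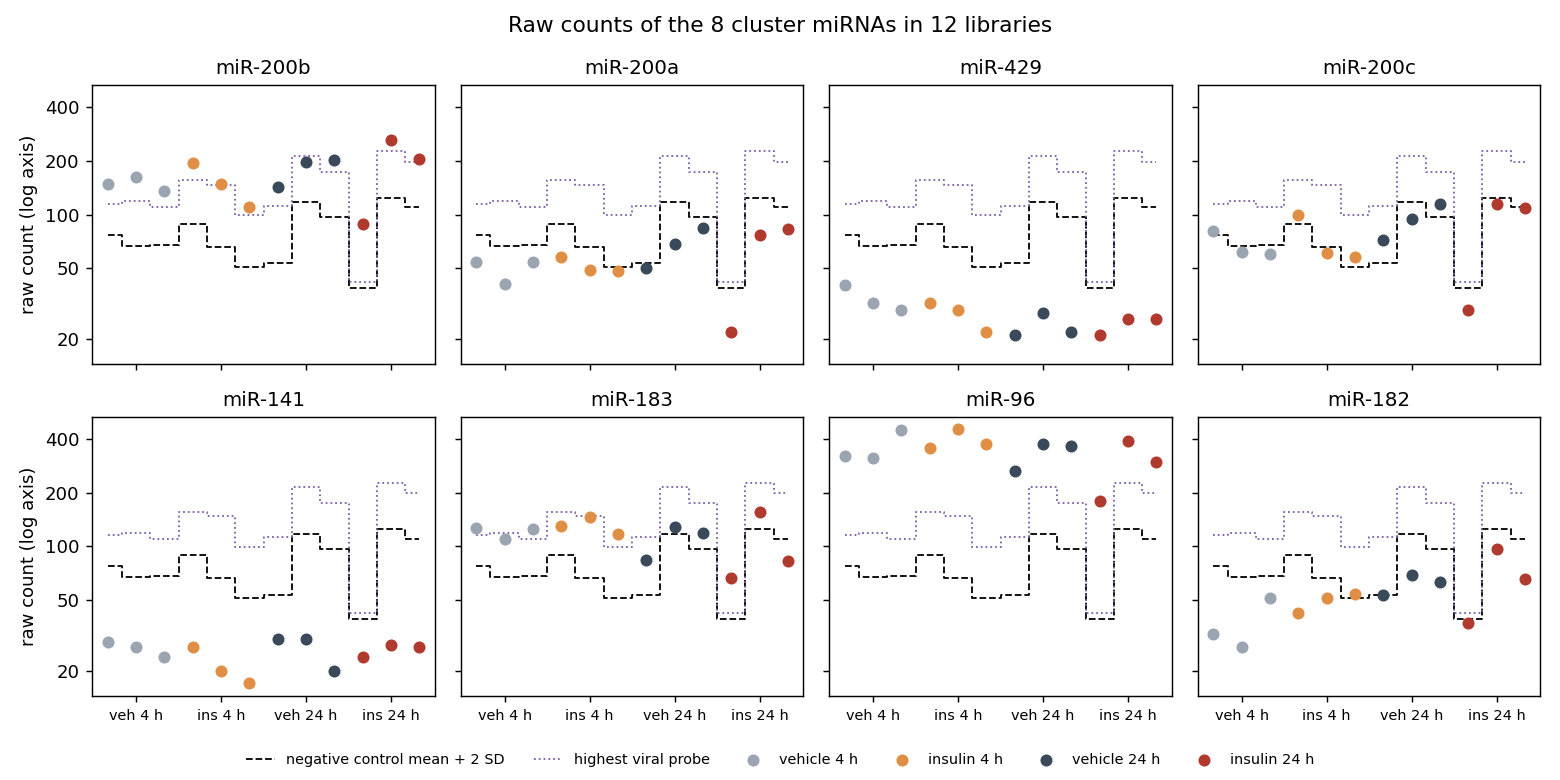
Raw count (log axis) of each of the 8 miRNAs in each of 12 libraries, ordered by group and replicate, with the library's threshold (dashed) and its highest viral miRNA probe (dotted). Points of miR-96 lie above both lines in 12 of 12 libraries, those of miR-200b above the threshold in 12 and above the dotted line in 11, and those of miR-141 and miR-429 below both lines throughout.

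The miR-183 cluster held the most abundant of the 8. Counts of mmu-miR-96 were 322, 311 and 449 in vehicle at 4 h and 357, 454 and 376 with insulin at 4 h. At 24 h they were 265, 374 and 366 in vehicle and 180, 390 and 298 with insulin. Every one of these lay above the library's highest viral probe, and the mean of 345 ± 76.7 (SD, n = 12) ranked 56 of 566. The lowest count fell in insulin at 24 h replicate 1, the library with the lowest threshold, and the raw counts of the groups overlapped.

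Its neighbour mmu-miR-183 gave 126, 110 and 125 counts in vehicle at 4 h and 129, 145 and 117 with insulin at 4 h. At 24 h it gave 84, 128 and 118 in vehicle and 66, 155 and 83 with insulin. The last of these, insulin at 24 h replicate 3, was the 1 library below its threshold, which was 110 there. In 4 of 12 libraries mmu-miR-183 exceeded the highest viral probe. The third mate, mmu-miR-182, gave 32, 27 and 51 counts in vehicle at 4 h and 42, 51 and 54 with insulin at 4 h. At 24 h it gave 53, 69 and 63 in vehicle and 37, 96 and 65 with insulin. It was above the threshold in insulin at 4 h replicate 3 alone, at 54 counts against 50.8.

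In the miR-200 family the most abundant member was mmu-miR-200b. Its counts were 149, 162 and 136 in vehicle at 4 h and 196, 149 and 110 with insulin at 4 h. At 24 h they were 142, 198 and 203 in vehicle and 89, 263 and 204 with insulin. Its mean of 167 ± 47.9 counts (SD, n = 12) ranked 81 of 566. In vehicle at 24 h replicate 2 its 198 counts stayed below the highest viral probe, at 214, and in the other libraries it exceeded it.

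Counts of mmu-miR-200c were 81, 62 and 60 in vehicle at 4 h and 99, 61 and 58 with insulin at 4 h. At 24 h they were 72, 95 and 115 in vehicle and 29, 115 and 109 with insulin. These straddled the threshold, with 1 library of vehicle and 2 of insulin above it at 4 h and 2 of vehicle and 0 of insulin at 24 h, and none reached the highest viral probe. Counts of mmu-miR-200a ran from 22 to 84 with a median of 54.0, those of mmu-miR-429 from 21 to 40 with a median of 27.0, and those of mmu-miR-141 from 17 to 30 with a median of 27.0. The latter pair had median ratios to their library's negative control mean of 0.718 and 0.580, so in a typical library these probes read less than the average control with no target.

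In order of mean count the miRNAs ran mmu-miR-96, mmu-miR-200b, mmu-miR-183, mmu-miR-200c, mmu-miR-200a, mmu-miR-182, mmu-miR-429 and mmu-miR-141. Probes can differ in efficiency, so this is an order of counts and not of molecules per cell. Within libraries, mmu-miR-96 exceeded mmu-miR-200b in 12 of 12, mmu-miR-200b exceeded mmu-miR-183 in 11, and mmu-miR-183 exceeded mmu-miR-200c in 11. Lower down, mmu-miR-200c exceeded mmu-miR-200a in 12 of 12 libraries and mmu-miR-182 exceeded mmu-miR-429 in 10. The other neighbours were not separated: mmu-miR-200a exceeded mmu-miR-182 in 6 of 12 libraries and mmu-miR-429 exceeded mmu-miR-141 in 7.

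The count of mmu-miR-200b followed the negative controls of its library closely. Its ratio to their mean stayed between 3.56 and 4.31 in all 12 libraries, and averaged 4.02 ± 0.21 in vehicle and 4.01 ± 0.32 with insulin at 4 h, and 3.93 ± 0.23 and 3.84 ± 0.36 at 24 h (SD, n = 3). Over 12 libraries Pearson's r between the log2 counts was 0.978 and Spearman's rho 0.984 (permutation p = 2e-05 each, two-sided, the smallest that the permutations can give, adjusted p = 0.00016 over 8 miRNAs). Every r with the controls or the total count is of log2 values. Without insulin at 24 h replicates 1 and 2, the libraries farthest from the median, r was 0.960, and within 4 h and within 24 h it was 0.991 and 0.985.

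The other miRNAs of the family at intermediate counts did likewise, with r of 0.918 for mmu-miR-200c (rho 0.900, adjusted permutation p = 0.0004 for r) and 0.883 for mmu-miR-200a (rho 0.820, adjusted p = 0.0008). Within 4 h r was 0.792 for mmu-miR-200c and 0.369 for mmu-miR-200a (exact permutation p = 0.0278 and 0.472, unadjusted, n = 6), and within 24 h it was 0.944 and 0.941 (p = 0.0333 and 0.0444). Over 12 libraries r was 0.440 for mmu-miR-96 (rho 0.168, adjusted permutation p = 0.202) and 0.471 for mmu-miR-183 (rho 0.434, adjusted p = 0.201), and without the same 2 libraries it was -0.12 and -0.13. Within 4 h r was -0.24 for mmu-miR-96 and 0.242 for mmu-miR-183 (exact permutation p = 0.711 and 0.672, unadjusted, n = 6), and within 24 h it was 0.937 and 0.819 (p = 0.025 and 0.0444). For mmu-miR-182 r was 0.634 (rho 0.550, adjusted p = 0.056), for mmu-miR-141 0.364 (rho 0.368, adjusted p = 0.282) and for mmu-miR-429 0.202 (rho 0.282, adjusted p = 0.530). Within 4 h these 3 had r of -0.40, 0.740 and 0.639 (exact permutation p = 0.45, 0.10 and 0.111, unadjusted, n = 6), and within 24 h 0.940, 0.129 and 0.788 (p = 0.00556, 0.689 and 0.0333). The r of all other mouse probes within 24 h was not computed, so whether the high values there are particular to these miRNAs is not known. Total counts of the 24 h libraries ran from 142491 to 379809.

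Controls and miRNAs share a library's depth: on the log2 scale, the negative control mean and the total mouse count had an r of 0.752. Across all 12 libraries, the median r with the negative controls was 0.663 over 565 mouse probes with varying counts. It was 0.880 over the 33 viral probes, whose targets the mouse genome does not encode. The value for mmu-miR-200b lay above both medians. One viral probe, mghv-miR-M1-5 of murine gammaherpesvirus, gave 42 to 227 counts, a range like that of mmu-miR-200b, and was above every library's threshold. How much of the mmu-miR-200b count was specific signal was not tested.

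**Figure D2:**
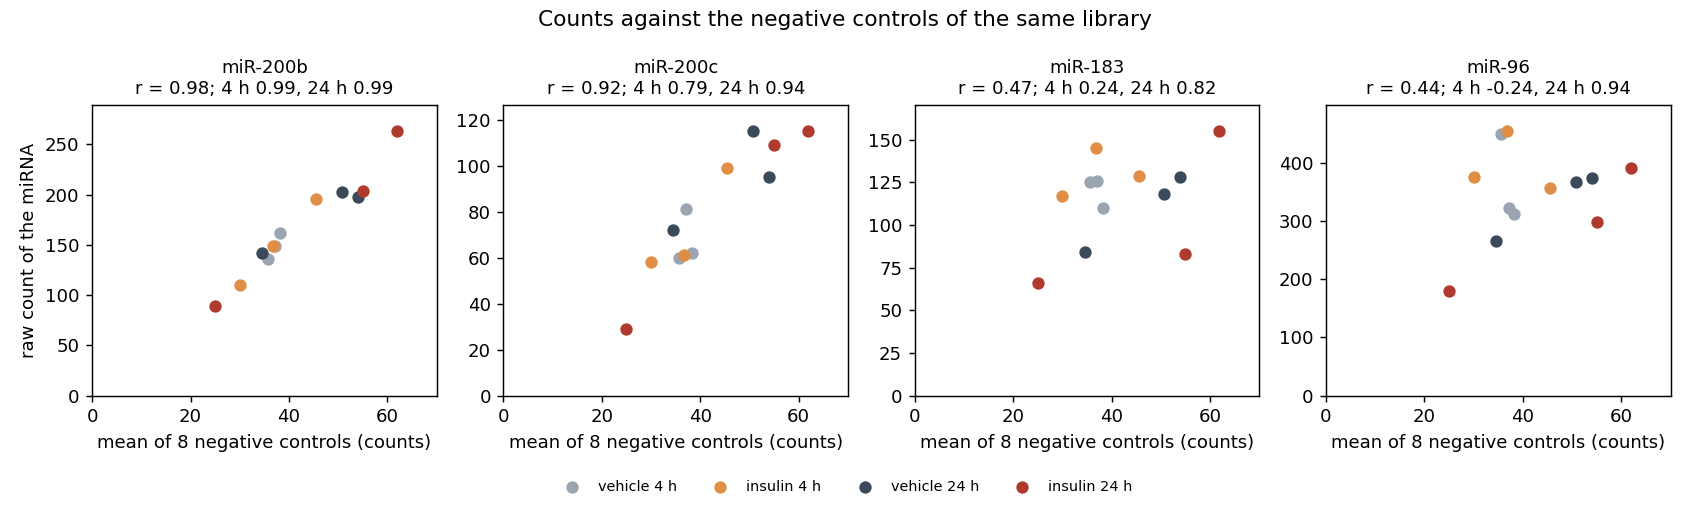
Raw count of 4 miRNAs (vertical axes) against the mean count of the 8 negative controls of the same library (horizontal axes), 1 point per library, coloured by group. The axes are linear, while each r is of the log2 values. Points of miR-200b lie close to a line (r = 0.978), those of miR-200c more loosely (r = 0.918). Those of miR-183 and miR-96 scatter over all 12 libraries (r = 0.471 and 0.440) and at 4 h, but rise with the controls among the 24 h libraries (r = 0.819 and 0.937).

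Insulin left the levels of the 4 tested miRNAs within the spread of the libraries at both harvest times. At 4 h the scaled level of mmu-miR-96 was 2045 ± 252 CPM, the edgeR count scaled to library size with TMM factors, in vehicle and 2086 ± 263 with insulin (SD, n = 3). The log2 fold change was 0.03 with a standard error (SE) of 0.16 and a 95% confidence interval of -0.31 to 0.37. For mmu-miR-183 it was -0.01 (interval -0.37 to 0.34), for mmu-miR-200b -0.12 (-0.49 to 0.26) and for mmu-miR-200c -0.04 (-0.61 to 0.54). These intervals leave room for changes of about that size in either direction, and the small differences changed sign for mmu-miR-96, mmu-miR-183 and mmu-miR-200c under other scalings, filters or single left-out libraries. In edgeR's quasi-likelihood test, 0 of the 4 passed an adjusted p of 0.05, and 0% of the 195 tested miRNAs did. Over all 195, 3 had an unadjusted p under 0.05, none of them a cluster miRNA, and DESeq2 called 0.

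At 24 h, when the labels place treated cells in insulin resistance, mmu-miR-96 measured 1605 ± 32.1 CPM in vehicle and 1449 ± 122 with insulin. The log2 fold change was -0.15 (SE 0.16, interval -0.50 to 0.20), and the libraries of the groups overlapped. All 3 same-numbered pairs of vehicle and insulin libraries deviated together at 24 h, and a pairing was inferred from this rather than from the labels. At 4 h, 2 of 3 such pairs did so too (r = 0.494 and 0.739, against -0.30 in the third), and the main fit there was unpaired. In 3 of 3 pairs at 24 h mmu-miR-96 was lower with insulin (1590 against 1613 CPM, 1383 against 1570 and 1375 against 1633). The other tested cluster miRNAs were lower in fewer pairs, mmu-miR-200c in 2 of 3 and mmu-miR-183 and mmu-miR-200b in 1 of 3 each. The share of all 195 tested miRNAs lower in 3 of 3 pairs was not computed. With the replicate number as a block within 24 h the difference of mmu-miR-96 was still -0.15 (SE 0.16, interval -0.50 to 0.20, edgeR adjusted p = 0.993). For mmu-miR-183 the difference was -0.07 (interval -0.43 to 0.30), for mmu-miR-200b 0.04 (-0.33 to 0.41) and for mmu-miR-200c -0.17 (-0.73 to 0.39). Again 0 of the 4 and 0% of the 195 passed in edgeR, with 4 of the 195 at an unadjusted p under 0.05, none of them a cluster miRNA, and 0 called by DESeq2. The difference for mmu-miR-200b turned negative under both other scalings, and those for mmu-miR-183 and mmu-miR-200c turned positive without insulin at 24 h replicate 3 and replicate 1 respectively.

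The difference between the 24 h and the 4 h response was tested directly. It was -0.18 for mmu-miR-96 (log2, SE 0.23), -0.06 for mmu-miR-183 (SE 0.24), 0.16 for mmu-miR-200b (SE 0.25) and -0.14 for mmu-miR-200c (SE 0.38). Intervals reached from -0.66 to 0.31 for mmu-miR-96 and from -0.94 to 0.67 for mmu-miR-200c. None of the 4 and 0% of the 195 passed in edgeR, 0 of the 195 had an unadjusted p under 0.05, and DESeq2 called 0.

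The 2 tested miRNAs of the miR-183 cluster, mmu-miR-96 and mmu-miR-183, were lower at 24 h than at 4 h under both treatments. In vehicle, the scaled level of mmu-miR-96 was 2038, 1798 and 2301 CPM at 4 h against 1613, 1570 and 1633 CPM at 24 h, and with insulin it was 1782, 2232 and 2244 CPM against 1590, 1383 and 1375 CPM. For mmu-miR-183 they were 797, 636 and 641 CPM against 511, 537 and 526 CPM in vehicle, and 644, 713 and 698 CPM against 583, 550 and 383 CPM with insulin. The 383 CPM came from insulin at 24 h replicate 3, where the 83 counts of mmu-miR-183 lay below the threshold of 110. In both miRNAs each 24 h library lay below each 4 h library, within either treatment and over both. Of the 195 tested miRNAs, 14.4% showed such a gap downwards in vehicle, 8.72% with insulin and 5.13% over both.

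**Figure D3:**
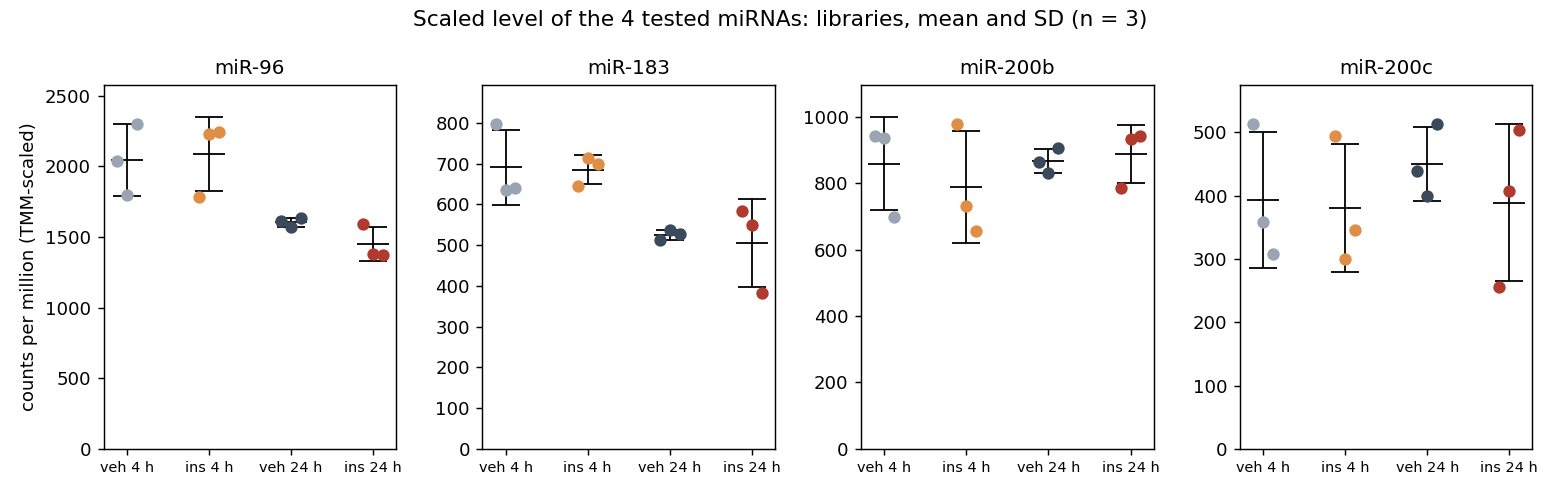
Level in CPM after TMM scaling (vertical axes, from 0) of the 4 tested miRNAs by group, with points for libraries and bars for the mean and SD of 3. All 24 h points of miR-96 (1375 to 1633) and of miR-183 (383 to 583) lie below all their 4 h points, while the groups of miR-200b and miR-200c overlap. The lowest miR-183 point, 383, is from a library where its raw count was below the threshold.

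Taken within a treatment, neither change passed the adjusted threshold. In vehicle the log2 fold change was -0.35 for mmu-miR-96 (SE 0.16, edgeR adjusted p = 0.293) and -0.39 for mmu-miR-183 (SE 0.17, adjusted p = 0.269). There 0% of the 195 passed in edgeR, 31 had an unadjusted p under 0.05, both miRNAs among them, and DESeq2 called 18, neither of them among those. With insulin it was -0.53 for mmu-miR-96 (SE 0.16, adjusted p = 0.0868) and -0.45 for mmu-miR-183 (SE 0.17, adjusted p = 0.162), where 3.59% of the 195 passed. Several alternatives called 1 or both with insulin, DESeq2 among them (adjusted p = 0.0036 and 0.0276).

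Averaged over both treatments, a contrast added with these data already known, mmu-miR-96 fell by 0.44 on the log2 scale (SE 0.11, edgeR adjusted p = 0.0199), a level 0.738 times that at 4 h. For mmu-miR-183 it fell by 0.42 (SE 0.12, adjusted p = 0.0278), to 0.747 times. The contrast called 30 of 195 miRNAs, 15.4%, of which 11 were lower, so 2 of the 4 tested cluster miRNAs were among a broader set. It reuses the libraries of both within-treatment contrasts and is no independent evidence beside them. Both calls were lost when all 566 mouse probes were tested (adjusted p = 0.139 for mmu-miR-96 and 0.137 for mmu-miR-183), and without insulin at 4 h replicate 2, vehicle at 24 h replicate 2 or vehicle at 24 h replicate 3. The call of mmu-miR-183 was also lost without vehicle at 24 h replicate 1, and the direction of both held throughout. Scaling to housekeeping mRNAs gave -0.77 for both, with the median of all tested miRNAs at -0.33. Subtracting the negative control mean gave -0.74 for mmu-miR-183.

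The tested miR-200 miRNAs did not pass the test over both treatments. The difference was 0.09 for mmu-miR-200b (SE 0.12, interval -0.17 to 0.36) and 0.14 for mmu-miR-200c (SE 0.19, interval -0.26 to 0.54), on the log2 scale, and scaling to housekeeping mRNAs turned both negative. In vehicle the differences were 0.02 and 0.20, and with insulin 0.17 and 0.07. Scaled levels of mmu-miR-200b were 859 ± 140 and 789 ± 168 CPM in vehicle and insulin at 4 h, and 867 ± 37.3 and 887 ± 87.1 CPM at 24 h (SD, n = 3). Whether the time difference of the miR-183 pair and that of the miR-200 pair are unequal was not tested.

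**Figure D4:**
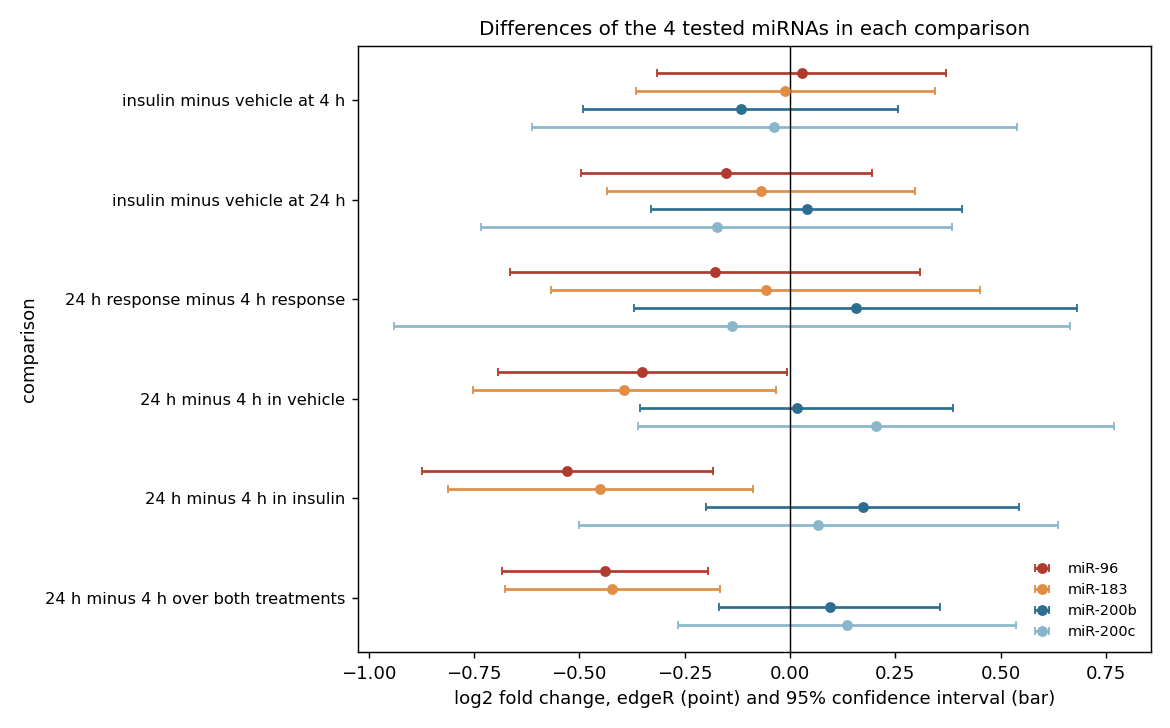
Log2 fold change (horizontal axis) of the 4 tested miRNAs in each comparison (vertical axis), with points for edgeR's estimate and bars for its 95% confidence interval. All insulin intervals cross 0, and those of miR-96 and miR-183 for 24 h minus 4 h lie below 0 in vehicle, in insulin and over both treatments, before adjustment for the number tested.

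Members of the miR-183 cluster come from neighbouring hairpins, and the ratio of their counts compares them without any scaling. The ratio of mmu-miR-96 to mmu-miR-183 was 2.99 ± 0.54 and 3.04 ± 0.24 in vehicle and insulin at 4 h, and 3.06 ± 0.12 and 2.94 ± 0.57 at 24 h (SD, n = 3). Group means thus differed by less than the spread of the libraries. Background was left in both counts. It weighs more on mmu-miR-183, at 1.51 to 3.95 times the negative control mean, than on mmu-miR-96, at 5.42 to 12.6 times. Whether the ratio stays as even after subtracting background was not tested. No ratio to mmu-miR-182 is given, since its count did not exceed the threshold in 11 of 12 libraries.

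The log2 count of mmu-miR-182 correlated with the log2 of the library's total mouse count at r = 0.925. When all 566 mouse probes were tested its log2 difference between 24 h and 4 h was 0.39 over both treatments (SE 0.19, edgeR adjusted p = 0.381). The adjusted test therefore called no change of mmu-miR-182, and whether it changed unlike its cluster mates was not tested. In the same fit mmu-miR-429 differed by -0.49 (SE 0.21, adjusted p = 0.328), mmu-miR-200a by 0.14 and mmu-miR-141 by 0.02.

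**Figure D5:**
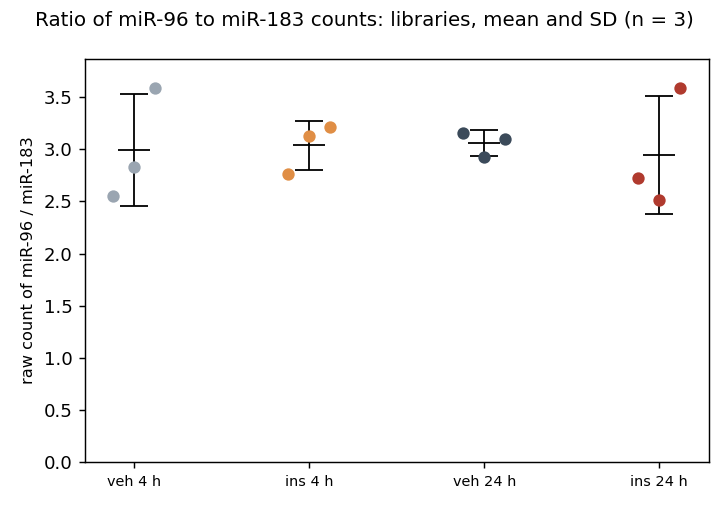
Ratio of raw counts of miR-96 to miR-183 (vertical axis, from 0) by group, with points for libraries and bars for the mean and SD of 3. With background left in the counts, the ratio stays near 3 in every group (means 2.94 to 3.06).

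Across the 12 libraries, log2 CPM of mmu-miR-96 and mmu-miR-183 had an r of 0.838, and mmu-miR-200b and mmu-miR-200c one of 0.751, as descriptions of libraries that share depth and scaling. These used TMM factors from all 566 mouse probes. The values that follow used factors from the 195 tested miRNAs, so the 2 sets are not on the same scaling. Among tested miRNAs outside the clusters, the likest to mmu-miR-183 were miR-145 (r = 0.929), miR-22 (0.908) and let-7b (0.887). The likest to mmu-miR-96 were miR-145 (0.941), miR-140 (0.886) and miR-30b (0.802). For mmu-miR-200b they were miR-367 (0.864), miR-1942 (0.860) and miR-1900 (0.849), and for mmu-miR-200c miR-367 (0.876), miR-153 (0.869) and miR-1942 (0.850). The likest miRNAs thus averaged 3441 to 5344 CPM for mmu-miR-96 and 3441 to 30366 CPM for mmu-miR-183. Those of the miR-200 pair averaged 348 to 451 CPM.

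Other miRNAs known from epithelia ranged from abundant to background. Of 11 listed, 10 were on the panel and 5 of these were tested, led by miR-31 and miR-34c, both above the threshold in 12 of 12 libraries, and miR-34b-3p. The epithelial markers miR-203, miR-205 and miR-375 exceeded it in 0. Summed counts of the list were 808 to 1603 in vehicle and 1348 to 1506 with insulin at 4 h, and 1456 to 2499 and 1100 to 4289 at 24 h. Of the 5 tested, 0 passed in either insulin contrast, and over both treatments 1 was higher at 24 h, miR-31 (log2 1.03, SE 0.27, edgeR adjusted p = 0.0199), and 0 lower. This share is near that of all tested miRNAs in the contrast, 15.4%, of which 19 were higher and 11 lower. The median over the 5 was 0.21, beside 0.04 over all 195.

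Of 10 mesenchymal miRNAs listed, 9 were on the panel and 5 were tested and above the threshold in 12 of 12 libraries, led by miR-21, miR-22 and miR-145. The others on the panel, miR-199a-5p, miR-199a-3p, miR-214 and miR-10b, exceeded it in 0. The mesenchymal list summed to 13234 to 18886 counts in vehicle and 17129 to 18632 with insulin at 4 h, and to 13872 to 18698 and 11138 to 25093 at 24 h. Over both treatments 1 of the 5 was lower at 24 h, miR-145 (log2 -0.53, SE 0.12, edgeR adjusted p = 0.0112), and 0 higher, again near the 15.4% of all tested miRNAs, and 0 passed in either insulin contrast. The list of 4 miRNAs of sense organs and photoreceptors outside the miR-183 cluster, among them miR-204, miR-211 and miR-184, had 0 tested, and its summed counts were 86 to 275. These lists were chosen with earlier results known, and their part in the values of the miR-200 and miR-183 miRNAs was not tested. Fewer cells with a miRNA and less of it per cell cannot be told apart in these bulk samples.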

How the data were processed

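NanoString nCounter counts of 620 probes were used from 12 libraries in 4 groups of 3, grouped by the labels' titles. Total RNA was extracted with the mirVana kit, per the labels' protocols. The authors deposited raw digital counts, read here as an expected count table because instrument values in the same columns are not whole. Every probe value was whole, so rounding changed nothing, although plain counts had been assumed. They also deposited a signal table, which served as an alternative. In it the signal of a mouse miRNA is its raw count multiplied by a constant of the lane. The sources used here name no software for it.

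The members and marker lists were chosen with earlier results of these data known. All 8 members are named in every library. From each marker list the 3 with the highest mean count are named. After their values were seen, miR-124, miR-203, miR-205, miR-375, miR-204, miR-211, miR-184, miR-199a-5p, miR-199a-3p, miR-214 and miR-10b were added to these. The likest miRNAs are the 3 with the highest r of log2 CPM (prior count 2).

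The threshold of a library was the mean of its negative controls plus 2 SD, and miRNAs above it in 3 or more of 12 libraries were tested, which kept 195. Counts were fitted in edgeR 4.0.16 (R 4.3.3) with TMM scaling and the two-sided quasi-likelihood F test, 4 groups in 1 fit, with Benjamini-Hochberg adjustment over the 195 and a threshold of 0.05. Background was not subtracted, which pulls fold changes of miRNAs with low counts towards 0. Pearson correlations with the negative controls and with the total count used log2 raw counts, without scaling. Tests of those with the controls used 100000 permutations, or all permutations within a time point. Alternatives used DESeq2 1.42.0, limma 3.58.1, other scalings, filters and thresholds, background subtraction, a replicate block and each library left out. The pipeline was tested on simulated data. Same-numbered libraries deviated together (r over 0.1) in 8 of 18 pairs, with r from -0.43 to 0.74. For vehicle and insulin at 4 h, 2 of 3 pairs did so (r = 0.494 and 0.739, against -0.30 in the third). All 3 pairs did so for vehicle and insulin at 24 h only (r from 0.31 to 0.59), so the numbers were taken to pair the samples in that comparison alone. Different-numbered pairs also reached an r of 0.31 (vehicle replicate 2, insulin replicate 3) and 0.235 (vehicle replicate 3, insulin replicate 2) there. The rest ran from -0.51 to -0.35. Over all groups the median r was 0.033 for same-numbered and 0.012 for other pairs, so the pairing is uncertain. The fit of insulin at 24 h with a replicate block within 24 h was added after the data were seen.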

Additional observations from a re-analysis of the deposited data

Results flagged for a closer look

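The viral probe mghv-miR-M1-5, which lies outside the tested mouse miRNAs, gave 42 to 227 counts with a mean of 143, and all 12 libraries placed it above their threshold. The cells have no labelled infection, and the probe's count was of the same order as that of mmu-miR-200b, whose mean was 167. The next viral probe, mcmv-miR-m01-2, exceeded the threshold in 5 libraries.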

How the results depend on the processing

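The number of cluster miRNAs above the threshold in at least 3 libraries was 4, and 3, 5 and 3 with the mean plus 3 SD, the highest negative control or the highest viral probe as threshold. The miRNA lost with the mean plus 3 SD and with the highest viral probe was mmu-miR-200c. With the highest negative control, mmu-miR-182 was gained. At the main threshold the number stayed 4 without each library. Neither insulin contrast nor the difference between responses called a cluster miRNA under any alternative. The libraries left out one at a time moved the number of cluster miRNAs called between 0 and 1 for 24 h minus 4 h in insulin and between 0 and 2 over both treatments. In insulin, DESeq2, housekeeping scaling and a filter of 9 libraries each called 2 (mmu-miR-96 and mmu-miR-183), scaling to the 100 most abundant miRNAs called 1 (mmu-miR-96), and leaving out insulin at 24 h replicate 1 called 1 (mmu-miR-96). In vehicle the filter of 9 libraries called 1 (mmu-miR-96). Over both treatments testing all 566 probes called 0. The log2 fold changes of mmu-miR-96 and mmu-miR-183 between times stayed below 0 under every alternative run. The cause of these changes was not tested.

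Sign changes were limited to differences that passed no test. For insulin at 4 h, mmu-miR-96 became -0.078 with scaling to the 100 most abundant, -0.026 with the negative control mean subtracted and -0.074 with limma on the deposited signals, and without a filter mmu-miR-200c became 0.038 and mmu-miR-183 0.072. For insulin at 24 h, mmu-miR-200b became -0.013 with DESeq2, -0.031 with scaling to the 100 most abundant, -0.39 with housekeeping scaling, -0.0099 without a filter and -0.050 with limma. Its difference between responses became -0.26 with housekeeping scaling. For 24 h minus 4 h in vehicle, mmu-miR-200b became -0.13 with either other scaling, -0.10 with the filter of 9 libraries, -0.018 with subtraction and -0.10 with limma. In insulin, mmu-miR-200c became -0.049 with scaling to the 100 most abundant, -0.56 with housekeeping scaling, -0.14 with subtraction and -0.089 with limma, and mmu-miR-200b -0.39 with housekeeping scaling. Over both treatments mmu-miR-200b became -0.039 with scaling to the 100 most abundant, -0.037 with the filter of 9 libraries, -0.26 with housekeeping scaling and -0.0083 with limma, and mmu-miR-200c -0.24 with housekeeping scaling.

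With libraries left out one at a time, insulin at 4 h ranged from -0.28 to 0.22 for mmu-miR-200c, -0.067 to 0.13 for mmu-miR-183 and -0.057 to 0.13 for mmu-miR-96. Insulin at 24 h ranged from -0.0025 to 0.11 for mmu-miR-200b, -0.39 to 0.010 for mmu-miR-200c and -0.16 to 0.10 for mmu-miR-183. The difference between responses ranged from -0.42 to 0.10 for mmu-miR-200c and -0.23 to 0.11 for mmu-miR-183. The time difference ranged from -0.12 to 0.084 for mmu-miR-200b in vehicle and from -0.15 to 0.31 for mmu-miR-200c in insulin.

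Over all 195 miRNAs, 24 h minus 4 h in vehicle called 0 in edgeR, 18 with DESeq2, 9 with scaling to the 100 most abundant, 8 with the filter of 9 libraries and 12 without vehicle at 4 h replicate 3, and 0 without each other library. In insulin it called 7, against 22, 15 and 16 with these, 16 with housekeeping scaling, 2 with subtraction, 1 without a filter and 0 with limma, and from 0 to 22 with 1 library left out. The 22 came without insulin at 24 h replicate 1, and 0 without insulin at 4 h replicate 1 or 2, vehicle at 24 h replicate 2 or 3, or insulin at 24 h replicate 2. Over both treatments it called 30, against 17 with housekeeping scaling, 9 without a filter and 12 to 52 with libraries left out. A fit with the replicate block called 10, 18 and 35 in these contrasts, and mmu-miR-96 (log2 -0.44, adjusted p = 0.0236) and mmu-miR-183 (-0.42, adjusted p = 0.0297) over both treatments, and it changed no call of a cluster miRNA. The replicate block within the 24 h libraries called 0 of 195 for insulin at 24 h, 6 of them with an unadjusted p under 0.05, and 0 cluster miRNAs. Housekeeping scaling moved the median of all tested miRNAs to -0.33 for insulin at 24 h and over both treatments. Background limits what can be said of mmu-miR-200a, mmu-miR-141, mmu-miR-429 and mmu-miR-182: in the deepest library, with 379809 counts, they gave 77, 28, 26 and 96 counts against a threshold of 124.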
